A study of Homo sapiens with 6 samples.

Results

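The genes described here are those of the voltage-gated calcium and sodium channels: the pore-forming subunits and the auxiliary subunits that travel with them. They were the protein-coding genes whose symbols followed the patterns CACNA1 plus a letter, CACNA2D, CACNB, CACNG, SCN followed by a number and A, or SCN followed by a number and B. This gave 40 genes of the 67060 in the count table: 10 calcium channel pores, 4 alpha2delta subunits, 4 calcium channel beta subunits, 8 gamma subunits, 10 sodium channel pores and 4 sodium channel beta subunits.

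RNA-seq was performed in SH-SY5Y cells, a catecholaminergic neuroblastoma line that the labels call a neuronal progenitor. 3 cultures received Ad CMV 3xFlag-Esrrg, an adenovirus that drives a flag-tagged mouse Esrrg, the nuclear receptor ERRγ, from the CMV promoter, and 3 received Ad CMV GFP. Both viruses were given at 0.5 µl for 24 hours, so cells of both groups were exposed to an adenovirus, and no culture without virus was compared. The line descends from 1 clone, the CMV promoter is not specific to a cell type, and no label says whether the libraries came from separate infections, so p-values measure the spread between these libraries, which may be technical.

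Calcium channel pores open on depolarization and let calcium in, which triggers transmitter release and calcium-dependent signalling. High-voltage pores need an alpha2delta subunit for delivery to the membrane and a cytoplasmic beta subunit for folding and gating, whereas the low-voltage T-type pores do not require either. Sodium channel pores carry the upstroke of the action potential and associate with single-pass beta subunits, which tune gating and also act in cell adhesion.

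Reads on genes ranged from 24969759 to 29700980 in the GFP libraries and from 26513620 to 40859666 in the Esrrg libraries. HTSeq, the counter named in the submitters' notes, assigned 51.3% to 52.2% of reads to no gene in the GFP libraries, 46.6% in Esrrg replicate 2, 31.6% in Esrrg replicate 3 and 29.5% in Esrrg replicate 4, so Esrrg replicate 2 stood apart from its group. Human ESRRG, to which reads from the mouse sequence can align in part, had 2357, 2796 and 2876 counts in the GFP libraries and 15228, 25994 and 26497 in the Esrrg libraries. PHOX2A, HAND2, ISL1 and GATA3, of the 9 adrenergic neuroblastoma markers, were counted at 50.5 CPM or more in all 6 libraries. CPM are read counts scaled by library size. TH, the enzyme that defines catecholamine cells, was at 0 in all 6. With 15.3% of protein-coding genes at 0 in this table, that zero is not read as absence of the transcript. The markers' sum was 523 to 692 CPM in the Esrrg libraries and 702 to 765 CPM in the GFP libraries, with 1 of the markers called higher (PHOX2A) and 3 lower, GATA2 and DBH among them. The 8 mesenchymal markers summed to 5133 to 5866 CPM and 4827 to 5084 CPM, with 1 called lower (YAP1), the 3 glial markers to 6.54 to 7.89 CPM and 9.76 to 10.3 CPM, with 1 called lower, and the 5 muscle markers to 0.382 to 0.561 CPM and 0.356 to 0.497 CPM, with none tested. The part of these shifts in the results below was not tested.

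Of the 40 channel genes, 28 reached a mean of 10 counts over the 6 libraries and 27 passed the filter on low counts and were tested. The test was edgeR's quasi-likelihood test over all 24500 genes that passed, and a gene was called where its Benjamini-Hochberg adjusted p was below 0.05 and it changed at least 1.5-fold. With Ad CMV 3xFlag-Esrrg, 12 channel genes were called lower and 2 were called higher, 14 in all, and 13 were not called. Over all genes tested, 16.8% were called lower and 17.3% higher (34.1% in either direction), and over protein-coding genes 12.4% and 25.9% (38.3%). At an adjusted p below 0.05 with no limit on the fold, 17 channel genes passed, beside 47.8% of all genes and 60.0% of protein-coding genes. The groups did not overlap in 20 channel genes, beside 58.1% of all genes and 70.3% of protein-coding genes. The 3 Esrrg values lay wholly below the 3 GFP values in 17 channel genes, beside 30.3% of all genes and 28.4% of protein-coding genes. They lay wholly above in 3 channel genes, beside the remainder of the 58.1% and 70.3% that did not overlap.

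**Figure D1:**
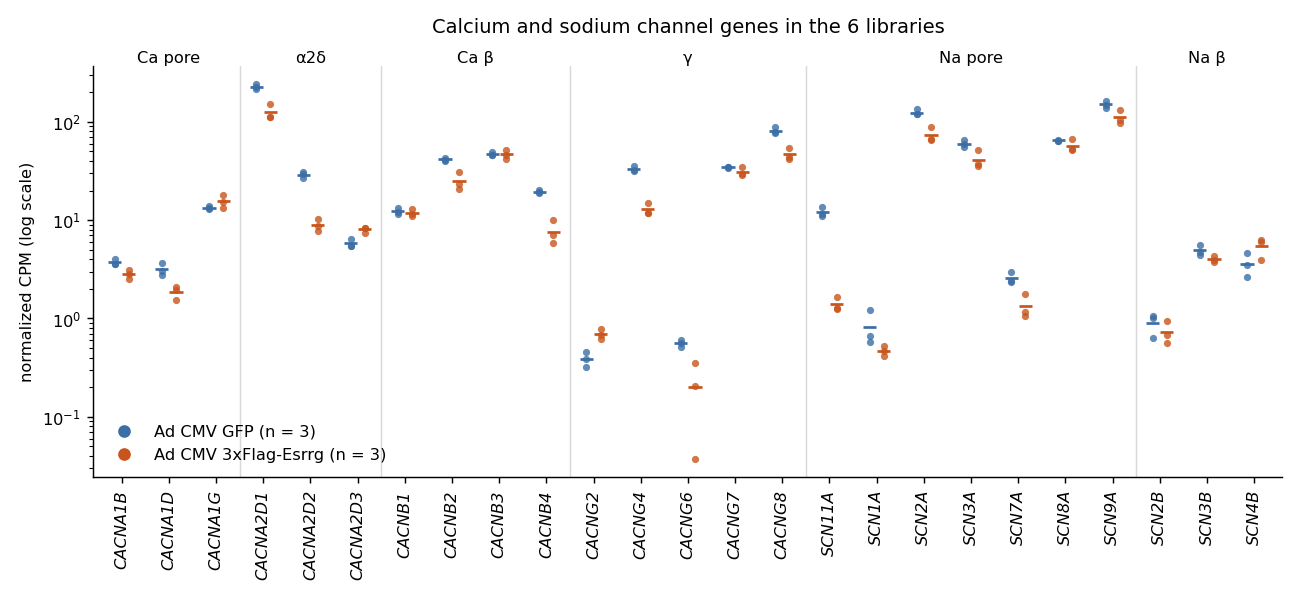
Normalized CPM (log axis) of 25 of the 27 tested channel genes, grouped by subunit class; each point is a library and each bar the mean of the 3 libraries of a group. SCN11A fell from 12.1 to 1.39 CPM, while CACNB3, CACNG7 and SCN8A overlap between the groups.

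The median log2 fold change (Esrrg over GFP) of the tested channel genes was -0.54, beside -0.10 over all genes tested and 0.12 over protein-coding genes, and 22 of the 27 were negative, beside 55.8% of all genes and 43.2% of protein-coding genes. Because the counts come from whole cultures, fewer cells with a transcript and less of it per cell cannot be told apart. The tested channel transcripts were long, with a median canonical length of 6793 bases beside 3382.5 bases over protein-coding genes tested. Their median GC content was 51.8% beside 48.6%. The correction that follows used the merged length of all exons of each gene, not the canonical length. With each library corrected for GC content and length, 12 channel genes were again called lower, 10 of them shared with the uncorrected fit. CACNA2D1 and SCN2A were lost, and CACNA1B and CACNG7 were gained. Of all 24500 genes tested, the corrected fit called 3691 lower and 3216 higher, beside 4117 and 4234 without the correction.

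**Figure D2:**
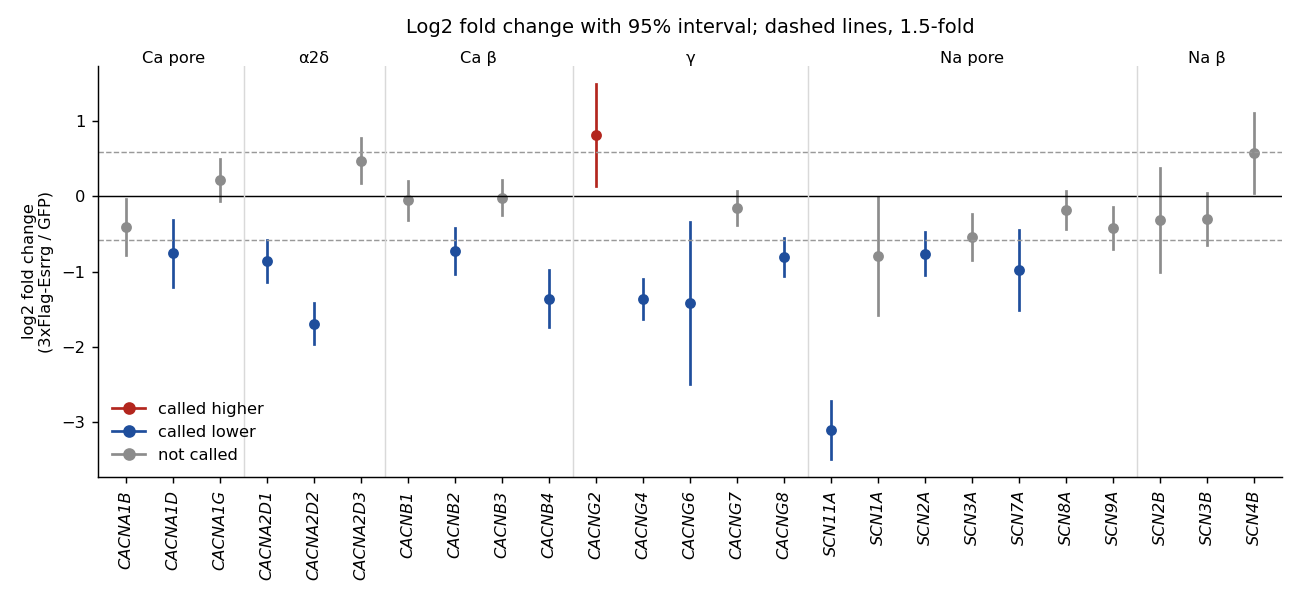
Log2 fold change of Ad CMV 3xFlag-Esrrg over Ad CMV GFP for 25 of the 27 tested channel genes, with the 95% interval from edgeR; dashed lines mark 1.5-fold. The genes called lower range from -3.10 (SCN11A) to -0.72 (CACNB2), and CACNG2 is called higher at 0.82.

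Promoter sequence is shown for the genes with the greatest called change in each class and direction and a mean of at least 50 counts, since a factor that binds DNA was overexpressed. RefSeq (GRCh38.p14) promoters matched 26 of the 40 genes, CACNG4 not among them. Each line gives the 250 bases before the RefSeq start of the gene, 5′ to 3′ on the strand of the gene; capitals mark AGGTCA, the nuclear receptor core hexamer.
SCN11A (chr3:39051945-39052194, minus strand): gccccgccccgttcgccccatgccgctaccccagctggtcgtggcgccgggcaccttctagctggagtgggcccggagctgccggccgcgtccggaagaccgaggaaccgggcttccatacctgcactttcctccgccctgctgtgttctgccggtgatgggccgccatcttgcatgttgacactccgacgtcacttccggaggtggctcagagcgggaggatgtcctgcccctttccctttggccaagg
CACNA2D2 (chr3:50504245-50504494, minus strand): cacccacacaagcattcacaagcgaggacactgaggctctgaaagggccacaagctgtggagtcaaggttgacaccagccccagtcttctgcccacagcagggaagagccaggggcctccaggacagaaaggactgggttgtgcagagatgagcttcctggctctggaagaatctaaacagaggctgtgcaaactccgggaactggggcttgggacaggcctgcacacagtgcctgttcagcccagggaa
CACNB4 (chr2:152099168-152099417, minus strand): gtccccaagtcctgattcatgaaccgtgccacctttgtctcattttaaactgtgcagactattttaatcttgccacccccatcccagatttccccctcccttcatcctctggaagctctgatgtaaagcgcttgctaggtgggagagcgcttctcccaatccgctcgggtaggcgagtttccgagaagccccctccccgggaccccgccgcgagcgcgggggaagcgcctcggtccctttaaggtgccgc
CACNA1D (chr3:53494361-53494610, plus strand): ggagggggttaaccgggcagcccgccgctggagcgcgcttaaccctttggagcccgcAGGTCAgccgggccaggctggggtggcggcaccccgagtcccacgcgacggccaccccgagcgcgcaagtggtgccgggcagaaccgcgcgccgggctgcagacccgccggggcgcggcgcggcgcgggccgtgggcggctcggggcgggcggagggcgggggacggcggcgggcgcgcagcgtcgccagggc

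Both strands of these windows were searched for TNAAGGTCA (an estrogen-related receptor element), AAGGTCA and AGGTCA, which are nested in one another, and for the core of the element bound by REST, a repressor of neuronal genes. AGGTCA was found in 1 of the 26 channel promoters, that of CACNA1D, starting 193 bases before the start, and in 12.1% of all 27305 promoters of the same length. AAGGTCA, TNAAGGTCA and the REST core were in none of the 26 channel promoters, and in 3.46%, 0.85% and 0.0476% of all promoters. These windows are only as long as shown, and the RefSeq start used for CACNA1D lies inside the GENCODE gene, which begins at base 53328963 of chromosome 3. A start inside the GENCODE gene was also used for CACNA1A, CACNA1C, CACNA1E, SCN2A, SCN4B and SCN7A, among others. The motif counts over the 26 channel promoters include these windows. The channel promoters held a median of 17 CpG dinucleotides, beside 11 over all promoters, and those printed ranged from 2 in CACNA2D2 to 41 in CACNA1D.

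Among the calcium channel pores, CACNA1D fell, CACNA1G and CACNA1B did not pass the test, and the summed level of the class had about the same mean in both groups. CACNA1D, an L-type pore that opens near resting potentials and takes part in pacemaking, was at 3.65, 2.78 and 3.05 CPM in GFP replicates 1, 3 and 4 and at 1.95, 2.11 and 1.56 CPM in Esrrg replicates 2, 3 and 4. The groups did not overlap, and the log2 fold change was -0.76 ± 0.20 (SE, adjusted p = 0.0106). Without GFP replicate 1 the call was lost (-0.64, adjusted p = 0.0576).

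CACNA1G, a low-voltage T-type pore, was the most abundant pore per length, at 1.56 CPM per kb of canonical transcript in GFP and 1.82 in Esrrg libraries. Its values of 13.0, 13.3 and 14 CPM with GFP and 15.4, 13.4 and 18.2 CPM with Esrrg overlapped, and the difference was 0.22 on the log2 scale (95% interval -0.06 to 0.50, adjusted p = 0.176), an interval within 1.5-fold. It was negative under library size scaling alone (-0.10) and under the GC and length correction (-0.21). CACNA1B, the N-type pore of presynaptic terminals, was at 4.01, 3.56 and 3.60 CPM with GFP and 3.10, 2.50 and 2.85 CPM with Esrrg. Those groups did not overlap, but the change of -0.40 ± 0.17 (SE) did not pass (adjusted p = 0.0724); it passed at -0.78 with the GC and length correction.

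The summed level of the 10 pore genes was 20.8 ± 2.35 CPM (SD, n = 3) with Esrrg and 20.8 ± 0.619 CPM with GFP. Within that sum, taken per length, CACNA1G made up 66.7% ± 2.54 with GFP and 76.9% ± 2.98 with Esrrg (SD, n = 3), and CACNA1D 14.4% ± 1.80 and 8.63% ± 2.24. The T-type gene was the leading pore in all 6 libraries. The other pores were scarce. CACNA1A, the P/Q-type pore of fast transmitter release, had 5, 14 and 19 counts with GFP and 7, 12 and 7 with Esrrg and did not pass the filter. CACNA1I, a T-type pore, had 1, 0 and 0 counts with GFP and 4, 2 and 5 with Esrrg, so the groups did not overlap at counts too few to test. CACNA1E (R-type), CACNA1F (the L-type pore of photoreceptors) and CACNA1H (T-type) held 0 to 6 counts in any library.

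CACNA1C, the L-type pore of heart and brain, CACNA1S, that of skeletal muscle, CACNA2D4 and CACNG3 were at 0 in all 6 libraries. A count of 0 allows up to 3 counts, or 0.0880 to 0.112 CPM depending on the library, by counting error alone. CACNA1C and CACNA2D4 lie on chromosome 12 in the same run of 5 protein-coding genes that were all at 0 (bases 1688574 to 2697950), which holds the widely used genes ADIPOR2 and DCP1B. The flanking genes FBXL14 and FKBP4 had 1304 and 23966 counts over the 6 libraries. CACNG3 lies in a run of 3 genes at 0 on chromosome 16, between ERN2 (46 counts) and RBBP6 (13143 counts), and CACNA1H has 5 of its 10 nearest protein-coding neighbours at 0. Over the table, 15.3% of protein-coding genes were at 0. These zeros are therefore given as listed and not read as absence of the transcript; copies of these genes in alternate contigs of the genome, which can take reads away from a gene, were not found (0% of their sequence). For CACNA1S the neighbours KIF21B and ASCL5 were counted.

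The alpha2delta class had the lowest ratio of summed levels of the 6 classes, 0.543 (Esrrg over GFP): CACNA2D1 and CACNA2D2 fell, and CACNA2D3 was higher without reaching a call. CACNA2D1, a gabapentin-binding subunit with the highest mean level per length of the channel genes in both groups, although CACNB3 was above it in Esrrg replicates 3 and 4, was at 241, 225 and 216 CPM with GFP and at 151, 113 and 112 CPM with Esrrg, with no overlap. It fell 1.81-fold (log2 fold change -0.86 ± 0.13, adjusted p = 0.000416). CACNA2D2, the other gabapentin-binding subunit, was at 29.3, 30.6 and 27.0 CPM with GFP and 7.78, 8.73 and 10.3 CPM with Esrrg.

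The CACNA2D2 groups were far apart, and the gene fell 3.23-fold (-1.69 ± 0.12, adjusted p = 9.39e-06), staying called under each alternative fit tried (-2.12 to -1.49). CACNA2D3, which does not bind gabapentin with high affinity, went the other way: 5.50, 6.50 and 5.41 CPM with GFP and 8.38, 8.38 and 7.48 CPM with Esrrg. Its groups did not overlap and the adjusted p was 0.0146, but at 1.39-fold (0.48 ± 0.14) the difference stayed under the fold required for a call. The class sum was 262 ± 13.7 CPM with GFP and 142 ± 21.6 CPM with Esrrg (SD, n = 3). Per length, the share of CACNA2D3 was 4.17% ± 0.439 with GFP and 10.6% ± 1.22 with Esrrg, that of CACNA2D2 13.8% ± 0.635 and 7.90% ± 2.0, and that of CACNA2D1 82.0% and 81.5%.

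Of the 4 calcium channel beta subunits, CACNB2 and CACNB4 fell and CACNB1 and CACNB3 did not pass the test. CACNB4, the beta subunit with high levels in cerebellum, was at 20.1, 18.9 and 19.5 CPM with GFP and 10.1, 7.04 and 5.84 CPM with Esrrg, a fall of 2.57-fold (-1.36 ± 0.17, adjusted p = 0.000176). CACNB2, the main cardiac beta subunit, was at 43.2, 41.3 and 40.1 CPM with GFP and 31.3, 23.4 and 20.8 CPM with Esrrg (-0.72 ± 0.14, adjusted p = 0.00173). In neither gene did the groups overlap, and in both the highest Esrrg value was that of replicate 2.

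CACNB3, a neuronal beta subunit, led the class per length at 16.1 CPM per kb with GFP and 15.9 with Esrrg. Its values of 45.7, 46.3 and 49.4 CPM with GFP lay inside those of 41.6, 46.0 and 52.2 CPM with Esrrg, and the difference of -0.02 (95% interval -0.25 to 0.21, adjusted p = 0.912) lay within 1.5-fold. CACNB1, the beta subunit of skeletal muscle that neurons also use, differed by -0.05 (95% interval -0.31 to 0.20, adjusted p = 0.727), again within 1.5-fold, with 13.3, 12.1 and 11.6 CPM against 11.6, 11.1 and 12.9 CPM. Both differences were positive under DESeq2 (0.07 and 0.03). With the GC and length correction they were -0.46 (adjusted p = 0.000495) and -0.48 (adjusted p = 0.005), smaller than 1.5-fold. Their sign and their adjusted p thus depended on the fit. As a share of the class per length, CACNB3 went from 56.1% ± 1.96 with GFP to 65.7% ± 5.17 with Esrrg, and CACNB4 from 8.58% ± 0.192 to 4.01% ± 1.24.

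**Figure D3:**
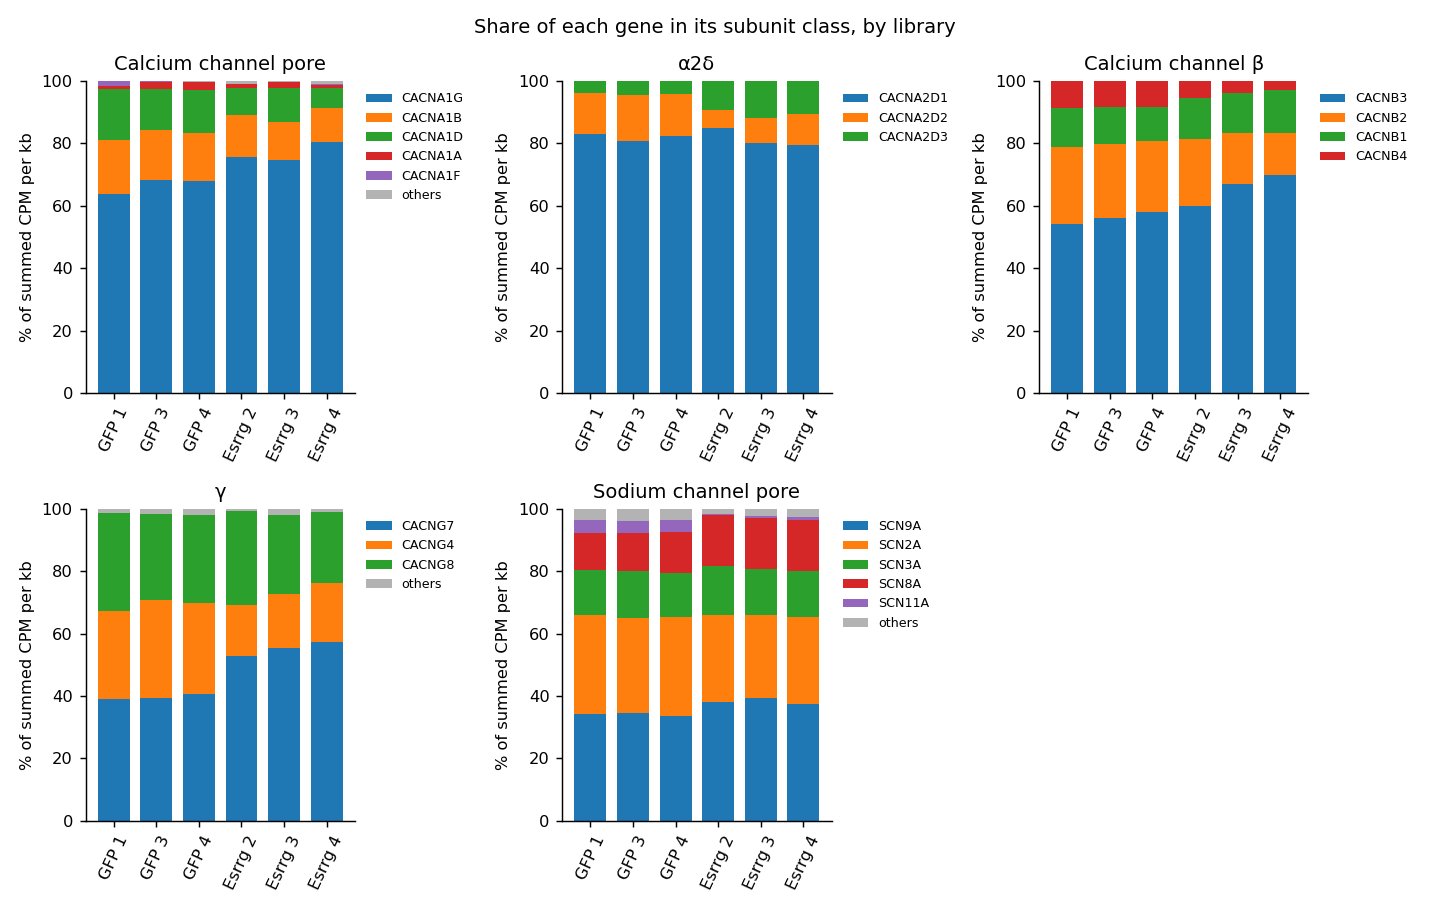
Share of each gene in the summed level of its subunit class, as a percentage of summed CPM per kb, in each of the 6 libraries, for 5 classes. CACNA1G, CACNB3 and CACNG7 take a larger share of their classes in every Esrrg library than in any GFP library, while CACNA2D1 stays between 79.6% and 84.9%.

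Of the gamma subunits, CACNG4, CACNG8 and CACNG6 were called lower and CACNG2 higher. These proteins have the fold of tight-junction claudins: CACNG1 and CACNG6 can join calcium channels of muscle, whereas CACNG2, CACNG3, CACNG4, CACNG5, CACNG7 and CACNG8 are known mainly as transmembrane partners of AMPA-type glutamate receptors. CACNG4 was at 31.9, 35.8 and 32.6 CPM with GFP and 11.9, 11.8 and 15.1 CPM with Esrrg, with no overlap, and fell 2.58-fold (-1.37 ± 0.12, adjusted p = 2.84e-05). CACNG8, an abundant member in hippocampus, was at 88.3, 78.5 and 77.6 CPM with GFP and 54.0, 42.0 and 44.3 CPM with Esrrg, again with no overlap, and fell 1.74-fold (-0.80 ± 0.11, adjusted p = 0.000321).

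CACNG7, next to CACNG8 on chromosome 19, overlapped between groups at 34.1, 34.6 and 34.8 CPM with GFP and 29.4, 28.6 and 35.2 CPM with Esrrg (-0.15, 95% interval -0.38 to 0.08, adjusted p = 0.248). The interval of CACNG7 lay within 1.5-fold in this fit, though the GC and length correction gave -0.65 (adjusted p = 0.000169). Per length it took 39.7% ± 0.824 of the class with GFP and 55.1% ± 2.36 with Esrrg, as CACNG4 went from 29.5% ± 1.61 to 17.6% ± 1.27.

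Both remaining gamma calls rested on few counts. CACNG2, or stargazin, had 9, 12 and 15 counts with GFP and 18, 26 and 21 with Esrrg, and was called higher (0.82 ± 0.31, adjusted p = 0.0476). Of the 6 fits that left out 1 library, only the fit without Esrrg replicate 2 kept that call; adjusted p ranged from 0.0614 to 0.456 over the 13 alternatives that lost it, and 31.6% of the exonic sequence of CACNG2 is shared with another gene on the same strand. CACNG6 had 16, 16 and 20 counts with GFP and 1, 12 and 7 with Esrrg (-1.41 ± 0.49, adjusted p = 0.0346), and its call held only without Esrrg replicate 3 among the fits with 1 library left out, at -0.89 (adjusted p = 0.0771) without Esrrg replicate 2; DESeq2 did not call it either (adjusted p = 0.0509). CACNG1 and CACNG5 did not pass the filter, with 6, 9 and 12 against 1, 4 and 3 counts, and 3, 7 and 9 against 1, 1 and 3 counts, for GFP and Esrrg.

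Among the sodium channel pores, SCN11A, SCN7A and SCN2A fell and none was called higher. The greatest change of any channel gene was that of SCN11A, a tetrodotoxin-resistant pore of pain-sensing neurons, whose promoter is the first printed above. It was at 13.7, 11.1 and 11.4 CPM with GFP and at 1.23, 1.28 and 1.67 CPM with Esrrg, which are 387, 342 and 379 against 33, 43 and 57 counts. Each Esrrg library was thus at 10.2% to 13.9% of the GFP mean, and SCN11A fell 8.59-fold (-3.10 ± 0.17, adjusted p = 1.9e-06), with -3.44 to -2.79 over the alternatives. Its share of the pore class per length went from 3.92% ± 0.26 to 0.698% ± 0.203.

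SCN10A, a tetrodotoxin-resistant pore next to SCN11A on chromosome 3, had 1 count in 1 GFP library and 0 in the other 5. SCN4A, the skeletal muscle pore, likewise had 1 count in all.

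A cluster of 5 sodium pores lies on chromosome 2, between bases 165087526 and 166611482, in the order SCN3A, SCN2A, SCN1A, SCN9A and SCN7A, and all 5 had negative fold changes. SCN2A, the pore of the axon initial segment of excitatory neurons, was at 134, 120 and 119 CPM with GFP and 88.7, 64.7 and 66.8 CPM with Esrrg (-0.76 ± 0.13, adjusted p = 0.000832). SCN7A, an atypical member that senses extracellular sodium, was at 2.98, 2.42 and 2.33 CPM with GFP and 1.76, 1.16 and 1.06 CPM with Esrrg (-0.97 ± 0.24, adjusted p = 0.00711). Both were called lower with no overlap between groups.

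SCN9A, a pore of sympathetic and pain-sensing neurons and the leading sodium pore per length, was at 162, 150 and 139 CPM with GFP and 133, 106 and 98.5 CPM with Esrrg. SCN3A, the pore of the embryonic brain, was at 64.9, 60.1 and 55.5 CPM with GFP and 51.5, 37.0 and 35.8 CPM with Esrrg. In both the groups were apart and the adjusted p passed (0.0173 and 0.00912), but the differences of -0.42 and -0.54 were smaller than 1.5-fold. SCN3A was called without Esrrg replicate 2 (-0.62), without GFP replicate 4 (-0.59), with library size only (-0.84) and with protein-coding genes only (-0.67), but was at -0.26 after correction for GC content and length and at -0.06 with a covariate for reads assigned to no gene.

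SCN1A, a pore of inhibitory interneurons, was scarce at 34, 18 and 22 counts with GFP and 14, 14 and 16 with Esrrg and did not pass (-0.79 ± 0.35, adjusted p = 0.0884). SCN8A, the pore of nodes of Ranvier, on chromosome 12, was at 65.7, 64.1 and 64.5 CPM with GFP and 67.7, 52.9 and 51.3 CPM with Esrrg. Its groups overlapped through Esrrg replicate 2, and the difference of -0.18 (95% interval -0.43 to 0.08, adjusted p = 0.222) stayed within 1.5-fold. Per length, SCN8A made up 12.4% ± 0.661 of the sodium pores with GFP and 16.4% ± 0.146 with Esrrg, SCN2A 31.3% ± 0.609 and 27.6% ± 0.819, and SCN9A 34.1% ± 0.551 and 38.1% ± 0.979, while the class sum went from 426 ± 26.7 to 291 ± 48.3 CPM (SD, n = 3). These pores resemble each other in sequence, and reads that align to more than 1 place were not counted. Such reads were 7.16% to 7.41% in the GFP libraries and 9.33%, 12.7% and 13.0% in Esrrg replicates 2, 3 and 4. The part of this difference in the levels of the pores was not tested.

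Among the sodium channel beta subunits, SCN4B, SCN3B and SCN2B did not pass the test. SCN4B, which is held to the pore by a disulfide bond, was at 2.66, 3.52 and 4.68 CPM with GFP and 3.89, 6.03 and 6.28 CPM with Esrrg. The groups overlapped and the difference of 0.58 ± 0.24 did not pass (adjusted p = 0.0688), though it was called without Esrrg replicate 2 (0.86), without GFP replicate 4 (0.81) and under DESeq2 (0.66). SCN3B was at 5.60, 4.46 and 4.71 CPM with GFP and 4.30, 3.77 and 3.93 CPM with Esrrg, which did not overlap, and did not pass (-0.30 ± 0.16, adjusted p = 0.142). SCN2B, also bound through a disulfide, had 18, 31 and 35 counts with GFP and 18, 32 and 19 with Esrrg, and its interval ran from -1.0 to 0.38 on the log2 scale, so neither a 1.5-fold fall nor its absence was detectable at this depth.

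Esrrg replicate 2, whose share of reads assigned to no gene lay nearest to that of the GFP libraries, divided the channel genes called lower. In 6 of the 12 (CACNA2D1, CACNB2, CACNB4, CACNG8, SCN2A and SCN7A) it was above Esrrg replicates 3 and 4, toward the GFP level: CACNA2D1 stood at 66.5% of the GFP mean in replicate 2 and at 49.8% and 49.1% in replicates 3 and 4. In 4, CACNA2D2, CACNG6 and SCN11A among them, it was the lowest: CACNA2D2 stood at 26.9%, 30.2% and 35.7%. Over the protein-coding genes called lower, replicate 2 was above the other Esrrg libraries in 1124 of 1709 and below them in 310.

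**Figure D4:**
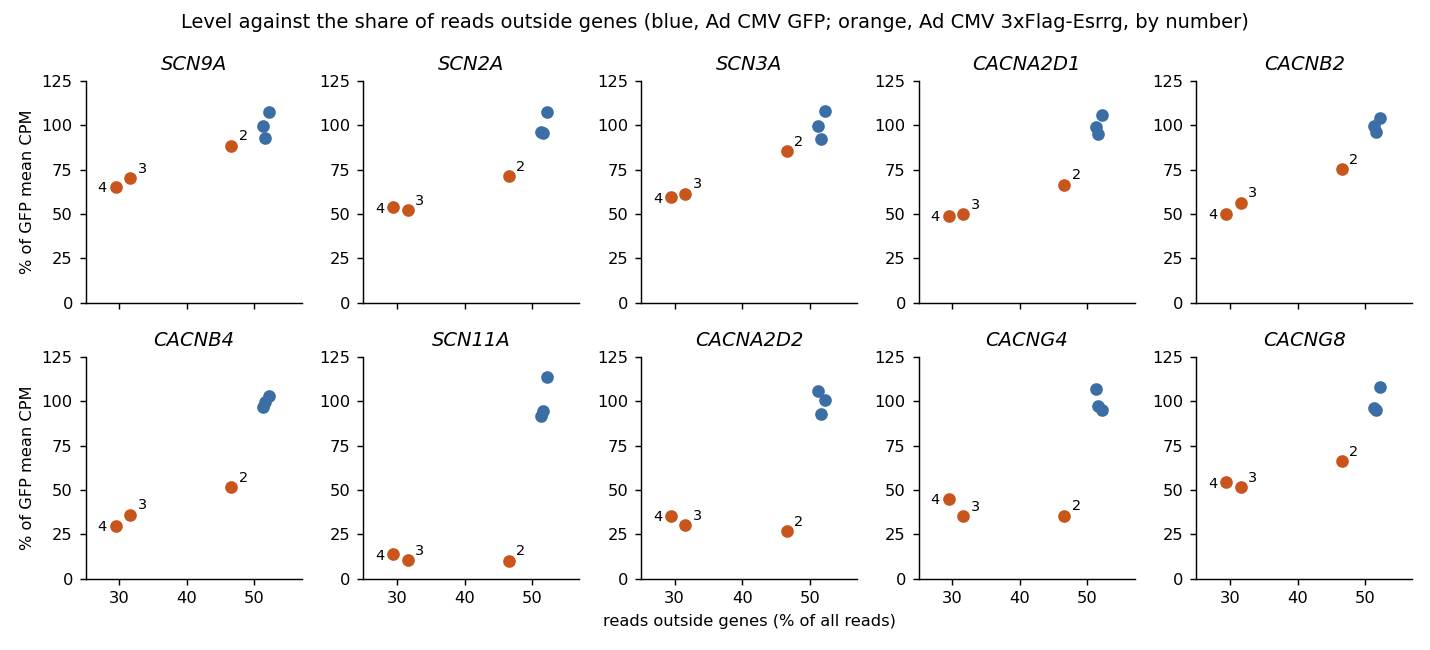
Level of 10 channel genes as a percentage of the GFP mean against the share of reads that HTSeq assigned to no gene (% of all reads), 1 point per library; numbers are Esrrg replicates. SCN9A, SCN2A, SCN3A, CACNA2D1, CACNB2, CACNB4 and CACNG8 are higher in replicate 2 than in replicates 3 and 4, and SCN11A and CACNA2D2 are lowest there.

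With that share added to the fit, 6 of the 12 remained called lower, among them SCN11A, CACNA2D2, CACNG4, CACNG6 and CACNB4, and CACNG2 lost its call. The log2 fold changes of SCN11A and CACNA2D2 were then -3.34 and -2.02. Those of CACNA2D1, CACNG8 and SCN2A were -0.45, -0.49 and -0.35, below 1.5-fold with adjusted p of 0.00208, 0.00155 and 0.0192, while CACNB2 (-0.24), SCN7A (-0.31) and CACNA1D (-0.60) did not pass. Since all GFP libraries had a greater share of reads assigned to no gene than any Esrrg library, group and share cannot be fully told apart. Without Esrrg replicate 2, 12 channel genes were called lower, 11 of them shared with the fit on all libraries, and 3 were called higher, CACNG2 and SCN4B among them; that fit called 5141 genes lower and 5820 higher of 25369 tested.

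**Figure D5:**
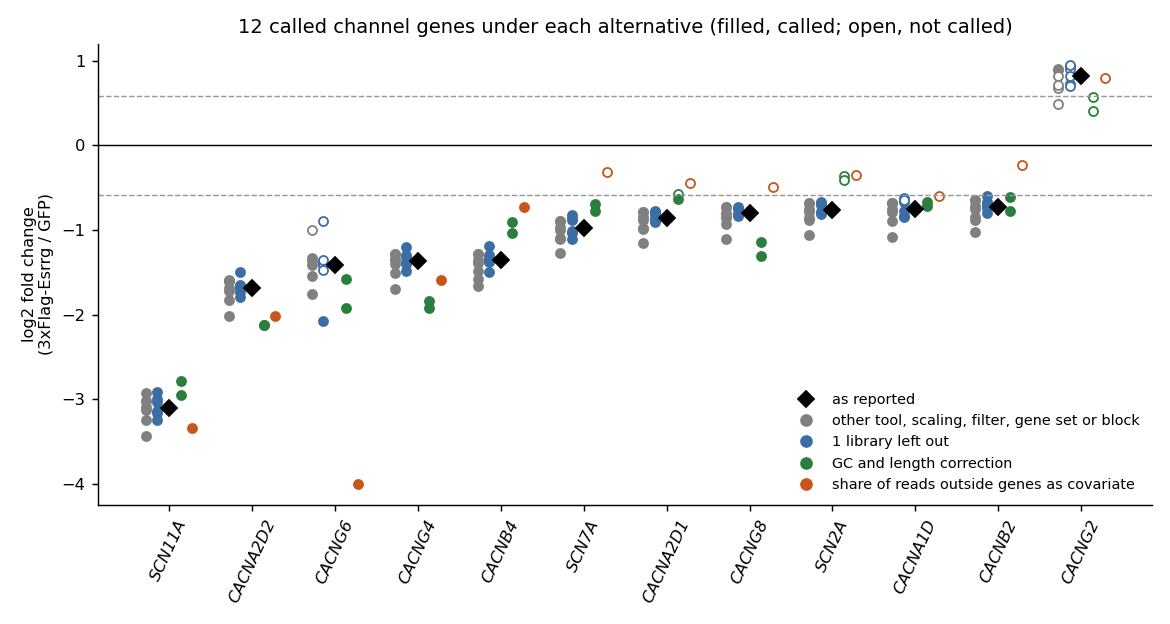
Log2 fold change (Ad CMV 3xFlag-Esrrg over Ad CMV GFP) of 12 of the 14 called channel genes as reported (diamonds) and under each alternative fit; filled circles were called and open circles not, and dashed lines mark 1.5-fold. SCN11A, CACNA2D2, CACNG4 and CACNB4 are filled throughout, and CACNG2 is open in most fits.

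A list of 36 further genes was taken, of which 30 were tested. It held genes that act on or bind these channels, the sodium leak channel complex, and calcium pumps and exchangers. In it 5 were called higher and 4 lower, beside 17.3% and 16.8% of all genes and 25.9% and 12.4% of protein-coding genes. The median log2 fold change was -0.04, beside -0.10 over all genes and 0.12 over protein-coding genes. GEM, a small GTPase that inhibits calcium channels through their beta subunits, was at 84.9, 92.7 and 90.1 CPM with GFP and 167, 221 and 209 CPM with Esrrg, and rose (1.16 ± 0.12, adjusted p = 5.73e-05). NALCN, the sodium leak pore, rose by 0.70 (adjusted p = 0.0041), CALM2, a calmodulin gene, by 0.63 (adjusted p = 0.00671), and the plasma membrane calcium pumps ATP2B4 and ATP2B2 by 0.77 (adjusted p = 0.000254) and 0.69 (adjusted p = 0.0457). Of the fits with 1 library left out, the call of ATP2B2, at 19 to 43 counts, held only without Esrrg replicate 2, and that of CALM2 was lost without Esrrg replicate 3 (0.52) and without Esrrg replicate 4 (0.57). FGF14, which binds the cytoplasmic tail of sodium channel pores, was at 44.1, 47.3 and 45.8 CPM with GFP and 22.4, 14.6 and 13.3 CPM with Esrrg, and fell (-1.45 ± 0.17, adjusted p = 0.000116).

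ANK3, the ankyrin that anchors sodium channels at the axon initial segment, was at 214, 197 and 199 CPM with GFP and 124, 107 and 99.5 CPM with Esrrg (-0.89 ± 0.11, adjusted p = 0.000138). In none of GEM, FGF14 and ANK3 did the groups overlap. The adhesion protein NRCAM (-0.67, adjusted p = 0.000191) and the sodium-calcium exchanger SLC8A2 (-0.75, adjusted p = 0.00884) also fell; the first was not called without Esrrg replicate 2 (-0.56) nor the second without GFP replicate 1 (-0.63). REST was at 144, 133 and 137 CPM with GFP and 114, 112 and 107 CPM with Esrrg, a difference of -0.32 (adjusted p = 0.0137) that was smaller than 1.5-fold. UNC79 and FGF11 were at 0 in all 6 libraries, which is likewise not read as absence.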

How the data were processed

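Total RNA from SH-SY5Y cells was depleted of ribosomal RNA and made into directional libraries. Per the submitters' notes, the authors used CASAVA, Trim Galore 0.6.7, STAR 2.7.9a, HTSeq 0.11.3 and DESeq2 with GRCh38; the annotation and the strand setting of the counting are not given in the sources used here. The deposited values are whole-number read counts per gene, not normalized, with 3 libraries per group.

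Gene IDs were matched to GENCODE 44 symbols (60419 of 67060, 90.1%). HTSeq's rows for unassigned reads were left out of library sizes. Counts were tested with edgeR 4.0.16 (R 4.3.3; TMM factors, filterByExpr, quasi-likelihood test without a block), with a call at a Benjamini-Hochberg adjusted p below 0.05 over all 24500 genes and 1.5-fold. CPM were scaled by the TMM-scaled library size; levels per kb use the canonical transcript. Errors beside log2 fold changes are SE; intervals are 95%. The limit set beside counts of 0 (3 counts) covers counting error only. Channel genes with a mean of 10 counts or more were named individually. Every pair of libraries within a group differed by more than sampling noise (chi-square per degree of freedom at least 3.49). On simulated data for this comparison (24199 genes), edgeR recovered 98% of genes changed 2-fold and 100% of those changed 4-fold, with 4 false calls. There, 100 genes were changed at each fold, all drawn from well-counted genes. All genes shared a common dispersion and no library stood apart from its group. These figures therefore do not carry over to genes with few counts or to the spread of Esrrg replicate 2.

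The alternatives were DESeq2 1.42.0, RLE size factors, library size alone, other filters, gene sets and fold cutoffs, a replicate block, GC and length offsets (mgcv 1.9.3), a covariate for reads assigned to no gene, and leaving out each library. The channel genes and the lists of partners and markers were chosen with earlier results of these data known, so lists are described by counts only. Protein sequences were not used here, and some genes are not reported here.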

Additional observations from a re-analysis of the deposited data

How the results depend on the processing

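Over the 16 alternative fits, SCN11A, CACNA2D2, CACNG4 and CACNB4 stayed called lower. Against 12 channel genes called lower, 6 were called with a covariate for reads assigned to no gene and 6 at a 2-fold cutoff, and 10 to 12 when 1 library was left out; 17 were called lower with library size only, 14 with protein-coding genes only, 14 with the replicate block with GC and length correction and 14 with no fold cutoff. Against 2 called higher, 1 was called with library size only, no low-count filter, a minimum of 10 counts per library, protein-coding genes only, the GC and length correction, the replicate block with GC and length correction, the covariate and the 2-fold cutoff, and 1 to 3 when 1 library was left out. Without filter 36 channel genes were tested, and CACNG1 was also called lower.

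Over all genes, 4234 called higher and 4117 lower became 2200 and 7566 with library size only, 2814 and 2468 with protein-coding genes only (13746 tested), 1773 and 1323 with the covariate, and 1952 and 1982 at 2-fold. Library size only moved the median of all genes from -0.10 to -0.42 and the share of calls that were higher from 50.7% to 22.5%. Partner genes called higher went from 5 to 1 with library size only, 2 with protein-coding genes only, 3 with the covariate, 1 at 2-fold and 3 to 7 without 1 library; those called lower went from 4 to 8 with no fold cutoff, 10 with library size only and 1 at 2-fold. For ESRRG the difference was 2.57 to 3.45 over the alternatives. The cause of these changes was not tested.

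The sign turned for genes that were not called: CACNA1G with library size only (-0.10), the GC and length correction (-0.21) and the replicate block with that correction (-0.33); CACNB1 with DESeq2 (0.028), RLE size factors (0.027), the replicate block (0.022) and 1 library left out (-0.11 to 0.076); CACNB3 with DESeq2 (0.066), RLE size factors (0.066), the replicate block (0.036) and 1 library left out (-0.10 to 0.17); SCN8A (0.18) and SCN4B (-0.13) with the covariate.

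Both groups share replicate numbers 3 and 4, but the labels tie them to no common batch, and deviations from the group means of the same-numbered libraries correlated at 0.08 and -0.0001 across genes, so the numbers were not taken as pairs. With a replicate block, 2 channel genes were called higher and 12 lower, 11 of the latter shared with the fit without it (CACNG6 was lost at -1.0, adjusted p = 0.0835, and SCN3A gained at -0.67, adjusted p = 1.65e-13; among those higher, CACNG2 was lost at 0.71, adjusted p = 0.166, and SCN4B gained at 0.59, adjusted p = 0.000894), and 4742 and 5693 of all genes. In the fits with a replicate block, GFP replicate 1 and Esrrg replicate 2 share their number with no library of the other group. The group difference there rested on replicates 3 and 4 of each group alone, so the adjusted p of those fits comes from few libraries. Channel genes with fewer than about 20 counts per library, such as CACNG2 and CACNG6, are limited by depth.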
